A study of Mus musculus with 8 samples.

Results

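The CD8+ cDC1 marker genes were 8 genes, *Xcr1*, *Wdfy4*, *Naaa*, *Clec9a*, *Cadm1*, *Cd8a*, *Cd24a* and *Gcsam*, that mark the CD8+ conventional dendritic cells (cDC1) of the mouse spleen. They were looked up by gene symbol in the annotation of the Affymetrix Mouse Gene 2.0 ST array, which lists 22180 genes with a probe set of their own among 41345 probe sets, and where a gene had several probe sets the one with the brightest mean signal was taken. This gave 7 of the 8 genes a probe set of their own. The probe set that carries the symbol of *Clec9a* also carries that of its neighbour *Clec1b*, so its values belong to both genes and it was kept out of the counts below. Sorted splenic dendritic cells (DCs) were compared between Cd11cCreLkb1f/f mice (Lkb1-deficient DCs, 3 arrays) and Lkb1f/f mice (WT DCs, 3 arrays), and between wild type C57BL/6 mice given lipopolysaccharide (LPS) overnight (1 array) and untreated wild type C57BL/6 mice (Control, 1 array). The labels give the LPS mouse as wild type, while a figure legend of the paper names Lkb1f/f mice for LPS-treated DCs. The labels were followed here. All mice were 8 weeks old and of the C57BL/6 strain background. Cre in Cd11cCreLkb1f/f mice is driven by the promoter of the integrin gene Cd11c, which is active in all types of DC and also in some macrophages, so the deletion was not specific to cDC1. No label gives a DC subset, so the arrays are taken to hold splenic DCs of all subsets.

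Conventional DCs of the mouse spleen fall into cDC1, which carry CD8α, XCR1 and CLEC9A, and cDC2, which carry CD11b and SIRPα and in part CD4. The cDC1 are known for taking up dead cells and presenting their antigens to CD8+ T cells on MHC class I, a route called cross-presentation, and their development depends on the transcription factors IRF8, BATF3, ID2 and NFIL3. LPS is the cell wall component of Gram-negative bacteria that is sensed through TLR4.

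The sequences before the starts of the genes are shown for *Xcr1* and *Wdfy4*, whose deposited values differed most between the LPS and Control arrays, and for the pair that held a match to a searched motif, *Cd8a* and *Gcsam*. Each is the 250 bases before the gene's start in RefSeq (GRCm38.p6), 5′ to 3′ on the gene's strand, with motif matches in capitals. The window of *Xcr1* lies at chr9:123862030-123862279 (minus strand), that of *Wdfy4* at chr14:33185067-33185316 (minus strand), that of *Cd8a* at chr6:71373177-71373426 (plus strand) and that of *Gcsam* at chr16:45610190-45610439 (plus strand).
Xcr1: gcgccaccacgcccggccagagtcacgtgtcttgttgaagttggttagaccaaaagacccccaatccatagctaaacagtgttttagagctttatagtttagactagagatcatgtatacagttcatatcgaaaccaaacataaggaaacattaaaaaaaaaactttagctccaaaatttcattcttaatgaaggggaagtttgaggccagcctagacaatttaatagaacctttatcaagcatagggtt
Wdfy4: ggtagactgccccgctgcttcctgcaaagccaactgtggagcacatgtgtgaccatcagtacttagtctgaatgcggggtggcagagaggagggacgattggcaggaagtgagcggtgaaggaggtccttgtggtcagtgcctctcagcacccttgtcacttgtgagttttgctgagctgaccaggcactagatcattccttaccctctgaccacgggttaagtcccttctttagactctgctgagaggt
Cd8a: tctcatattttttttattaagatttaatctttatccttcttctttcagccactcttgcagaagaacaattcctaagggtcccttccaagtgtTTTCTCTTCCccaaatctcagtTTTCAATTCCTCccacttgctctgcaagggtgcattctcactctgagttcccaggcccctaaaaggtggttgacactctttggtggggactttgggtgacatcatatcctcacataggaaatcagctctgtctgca
Gcsam: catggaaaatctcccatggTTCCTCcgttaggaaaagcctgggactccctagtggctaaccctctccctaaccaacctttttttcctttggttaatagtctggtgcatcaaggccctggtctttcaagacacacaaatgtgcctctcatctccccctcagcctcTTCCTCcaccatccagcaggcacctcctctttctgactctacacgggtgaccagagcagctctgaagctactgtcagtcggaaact
Of the 8 genes, 6 had such a window, and 4 motifs were searched on both strands. The AP-1 motif TGANTCA, where N is any base, was found in 0 of 6 windows, against 6.75% of all 32851 windows. The IRF motif GAAA, any 2 bases and GAAA again was found in 0 of 6, against 2.98% of all windows. The ETS-IRF composite motif, GGAA, any 2 bases and GAAA, which PU.1 and an IRF partner can share, was found in 1 of 6, against 2.30% of all windows. That window was the one of *Cd8a*, which held 2 matches. The PU.1 core GAGGAA was found in 2 of 6 windows, those of *Cd8a* and *Gcsam*, against 23.3% of all windows. In *Cd8a* its match overlapped one of the composite matches. These matches describe letters in a window and do not show binding.

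Levels are log2 signals as deposited, where a difference of 1 is a doubling. *Stk11*, which encodes Lkb1, was at 6.67, 6.41 and 5.55 in Lkb1-deficient DCs and at 6.73, 6.83 and 5.96 in WT DCs (replicates 1, 2 and 3 in each). It was lower in Lkb1-deficient DCs in all 3 same-numbered pairs, but the groups overlapped and the mean difference of −0.29 did not pass the limma test (adjusted p = 1). With the replicate number as a block the adjusted p was 0.458. The array medians were 4.59, 4.07 and 3.35 in Lkb1-deficient DCs and 4.64, 4.09 and 3.40 in WT DCs, so replicate 3 was the dimmest in both groups. *Itgax*, which encodes CD11c and defines these cells, was at 8.74 to 10.39 in Lkb1-deficient DCs, 8.48 to 10.46 in WT DCs, 7.58 with LPS and 10.31 in Control. Neutrophil markers were high on the replicate 3 arrays: their summed linear signal was 3589 in Lkb1-deficient DCs of replicate 3 and 232 to 524 in the other Lkb1-deficient arrays, and 4107 in WT DCs of replicate 3 and 137 to 498 in the other WT arrays. The part of these cells in the values below was not tested. The number of arrays limits the precision.

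None of the 7 CD8+ cDC1 marker genes passed the limma test between Lkb1-deficient and WT DCs. The differences between Lkb1-deficient and WT DCs ran from −0.24 to 0.52 on the log2 scale. All 7 were lower on the LPS array than on the Control array, with log2 differences of −3.92 to −1.14. The genotype result is a test on replicated arrays and the LPS result a difference of single arrays. Side by side they do not show that the effects differed. The direct test of that, given below, did not call these genes without the replicate block. Its calls with the block rest on an assumed pairing. In these bulk samples, fewer cDC1 among the DCs and less RNA of a gene per cDC1 cannot be told apart. Of 9 genes shared by conventional DCs, 5 were at least 1.5-fold lower with LPS and 0 higher. Of 15 cDC2 markers, 8 were lower and 1 higher, where 3.95% of all probe sets were lower and 3.63% higher. The part of such a wider fall in the values of the 7 genes was not tested.

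**Figure D1:**
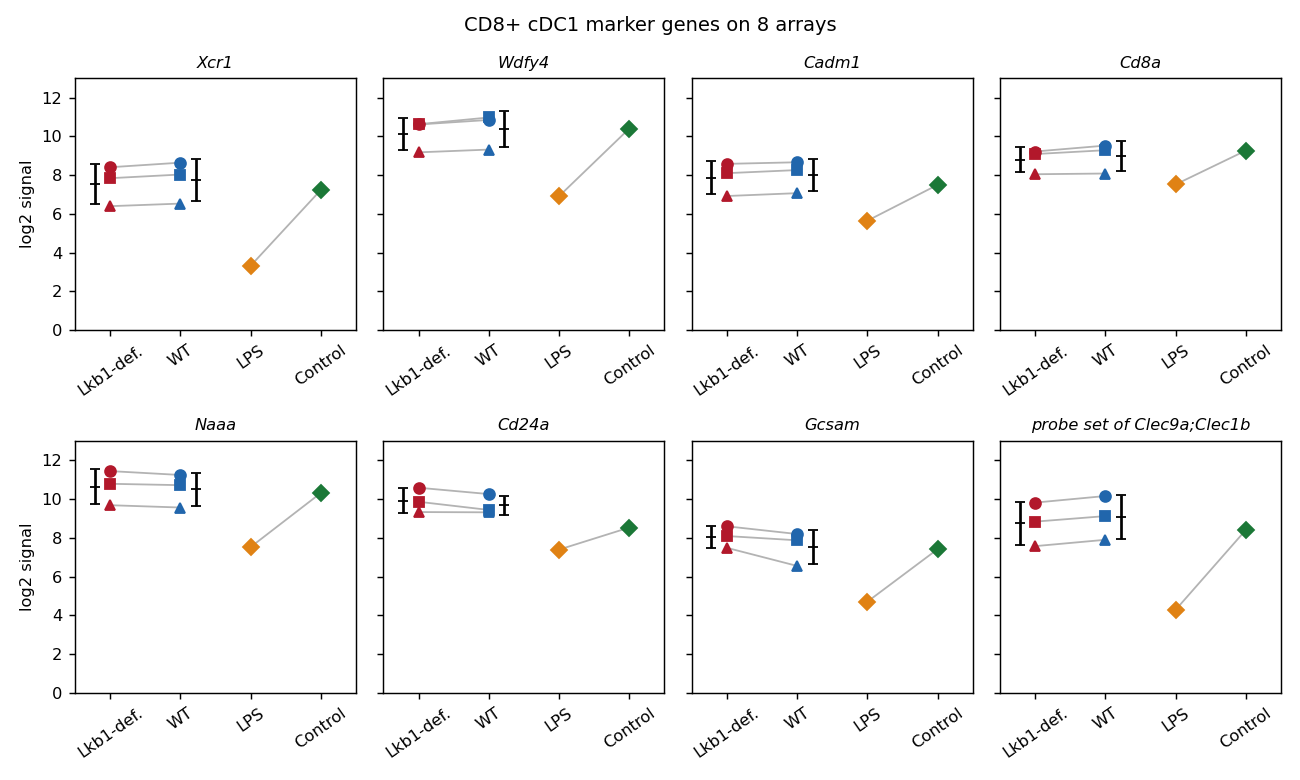
Log2 signal of the 7 genes with a probe set of their own, and of the probe set that Clec9a and Clec1b share, on each array (vertical axis); columns are Lkb1-deficient DCs, WT DCs, LPS and Control, grey lines join same-numbered arrays and the LPS and Control arrays, and black marks are the mean ± SD of 3 arrays. The lines between Lkb1-deficient and WT DCs span at most 0.93, while the LPS point lies below the Control point in all of them.

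*Xcr1* encodes the receptor for the chemokine XCL1 and is largely confined to cDC1 among DCs. Its log2 signal was 8.41, 7.84 and 6.40 in Lkb1-deficient DCs and 8.65, 8.04 and 6.53 in WT DCs. The groups overlapped, replicate 3 was the lowest in both, and the mean difference was −0.19 (limma, 95% confidence interval −1.42 to 1.05, adjusted p = 1). On the LPS array *Xcr1* was at 3.32, against 7.24 on the Control array, a difference of −3.92. The LPS value lay below that array's median of 4.14 and no detection calls were used, so no fold is given for it. The difference was the largest of the 7 genes as deposited, but with 16 added to the linear values it was −2.69, smaller than that of *Wdfy4* (−3.33) and equal to 2 decimals to that of *Naaa* (−2.69).

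*Cd8a* encodes the α chain of CD8, which forms a homodimer on cDC1 and pairs with the β chain on cytotoxic T cells. It was at 9.22, 9.09 and 8.05 in Lkb1-deficient DCs and at 9.53, 9.29 and 8.09 in WT DCs. All 3 pairs were lower in Lkb1-deficient DCs, by 0.04 to 0.31, with overlapping groups (mean −0.18). Its signal was 7.52 on the LPS array and 9.27 on the Control array, which is 3.36-fold lower with LPS. *Cd8b1*, the β chain, was at 6.59 with LPS and 6.78 in Control. Of 9 T cell markers 1 was at least 1.5-fold lower with LPS, 0 were higher and 5 had equal values on both arrays, with a median difference of 0. The summed linear signal of that list was 342 on the LPS array and 376 on the Control array, and 461 to 971 in Lkb1-deficient DCs and 544 to 868 in WT DCs. No detection calls were used, so these signals do not say whether T cells were present. The part of T cells in the *Cd8a* signal was not tested.

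*Clec9a* encodes a C-type lectin receptor for actin filaments exposed on dead cells, and *Clec1b* encodes CLEC-2, the podoplanin receptor best known from platelets. Their shared probe set was at 9.82, 8.84 and 7.57 in Lkb1-deficient DCs and at 10.16, 9.13 and 7.90 in WT DCs. It was lower in Lkb1-deficient DCs in all 3 pairs, by 0.29 to 0.34, the groups overlapped, and the adjusted p was 1 without and 0.340 with the block. On the LPS array it was at 4.28, against 8.41 on the Control array, a difference of −4.13. The LPS value lay close to that array's median of 4.14, and *Mgl2*, *Clec4a2* and *Cd3d* had the same value there, so no fold is given. The probe set of *Clec1b* alone was at 2.75 with LPS, below that array's median, and at 6.10 in Control. It was 0.59 lower on the log2 scale in Lkb1-deficient than in WT DCs with separate groups (limma, adjusted p = 0.163 with the block and 1 without). The values of the shared set were assigned to neither gene.

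*Wdfy4* encodes a BEACH domain protein that cDC1 need to cross-present antigens taken up from cells. Its signal was 10.62, 10.63 and 9.18 in Lkb1-deficient DCs and 10.86, 10.98 and 9.32 in WT DCs. The groups overlapped, and the mean difference of −0.24 was the lowest of the 7 genes (95% confidence interval −1.48 to 0.99). LPS was accompanied by a signal of 6.91, against 10.41 in Control, 11.3-fold lower. In log2 units the difference was −3.50.

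*Naaa* encodes a lysosomal amidase that breaks down palmitoylethanolamide and other fatty acid ethanolamides. It was at 11.45, 10.80 and 9.69 in Lkb1-deficient DCs and at 11.25, 10.72 and 9.57 in WT DCs. Here Lkb1-deficient DCs were the higher ones in all 3 pairs, by 0.07 to 0.20, with overlapping groups and a mean difference of 0.13. *Naaa* was at 7.53 on the LPS array and at 10.33 on the Control array, 6.95-fold lower.

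*Cadm1* encodes a cell adhesion molecule of the nectin-like family that binds CRTAM on activated T cells. It was at 8.59, 8.10 and 6.92 in Lkb1-deficient DCs and at 8.67, 8.26 and 7.07 in WT DCs. The pairs differed by −0.16 to −0.08, and the groups overlapped almost fully. *Cadm1* was at 5.64 with LPS and at 7.50 in Control, 3.62-fold lower.

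*Cd24a* encodes a small GPI-anchored glycoprotein that many immature blood cells carry as well. It was at 10.59, 9.87 and 9.34 in Lkb1-deficient DCs and at 10.26, 9.44 and 9.32 in WT DCs. The pairs were higher in Lkb1-deficient DCs by 0.33 and 0.42 in replicates 1 and 2 and by 0.01 in replicate 3. Its second probe set was at 7.54, 8.03 and 7.72 in Lkb1-deficient DCs and at 7.18, 7.66 and 8.06 in WT DCs, so it was higher in 2 pairs and lower in 1. With LPS *Cd24a* was at 7.39, against 8.53 in Control, 2.20-fold lower, the smallest difference of the 7 genes as deposited. The second probe set was 1.90-fold lower with LPS.

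*Gcsam*, which encodes a signalling and motility protein known from germinal centre B cells, had the largest difference between the genotypes. It was at 8.60, 8.10 and 7.49 in Lkb1-deficient DCs and at 8.20, 7.88 and 6.55 in WT DCs. All 3 pairs were higher in Lkb1-deficient DCs, by 0.40, 0.22 and 0.93, but the groups overlapped. The mean difference of 0.52 had a 95% confidence interval of −0.72 to 1.75 and an adjusted p of 1 in limma. With the replicate block the interval was 0.10 to 0.94 and limma gave an unadjusted p of 0.0241 and an adjusted p of 0.353. *Gcsam* was at 4.70 on the LPS array and at 7.41 on the Control array, 6.56-fold lower. The LPS value lay near that array's median of 4.14. With 16 added to the linear values the log2 difference was −2.15, against −2.71 as deposited. Of the 4 germinal centre B cell markers with a probe set, 0 were 1.5-fold lower or higher with LPS, where 3.95% of all probe sets were lower and 3.63% higher. A list this short says little, since 2 of 4 had equal values on both arrays. Their summed linear signal was 121 on the LPS array and 128 on the Control array. In Lkb1-deficient DCs that sum was 109 to 232 and in WT DCs 92.5 to 216. Of 9 B cell markers, 4 were at least 1.5-fold lower with LPS and 0 higher. Their summed linear signal was 349 on the LPS array and 692 on the Control array. The part of B cells in the *Gcsam* signal was not tested.

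For Lkb1 deletion, limma called 0 of 7 genes at an adjusted p under 0.05, where 0.00967% of all probe sets were called. At an unadjusted p under 0.05 it also gave 0 of 7. The methods' t-test gave 0 of 7 at either threshold. With the replicate number as a block, limma called 0 of 7 after adjustment, where 0.23% of all probe sets were called, and 1 of 7 (*Gcsam*) at an unadjusted p under 0.05. No share of all probe sets at an unadjusted threshold is given, so that count has no background beside it. Adjusted p values with the block ran from 0.353 to 0.683. The groups were separate for 0 of 7 genes, where they were for 0.573% of all probe sets. All 7 genes kept 1 direction across the 3 pairs, 4 lower (*Xcr1*, *Wdfy4*, *Cadm1* and *Cd8a*) and 3 higher (*Naaa*, *Cd24a* and *Gcsam*), which 30.3% of all probe sets also did. The median difference over the 7 genes was −0.13, and −0.08, −0.16 and −0.04 within replicates 1, 2 and 3, while that of all probe sets was −0.02. These data do not show that the genes were equal in both genotypes. The standard error was 0.63 for every probe set without the block, so the 95% interval of each difference reached 1.24 to either side, or 2.35-fold, and with the block the standard errors of the 7 genes were 0.097 to 0.164. Nothing in the labels says that the 3 arrays of a group came from separate mice. A figure legend of the paper gives n = 3 for the Cd11cCreLkb1f/f mice and no number for untreated WT mice. The p values refer to these samples only. Without the block each limma p value rests on the standard error common to all probe sets, not on the spread of that gene.

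**Figure D2:**
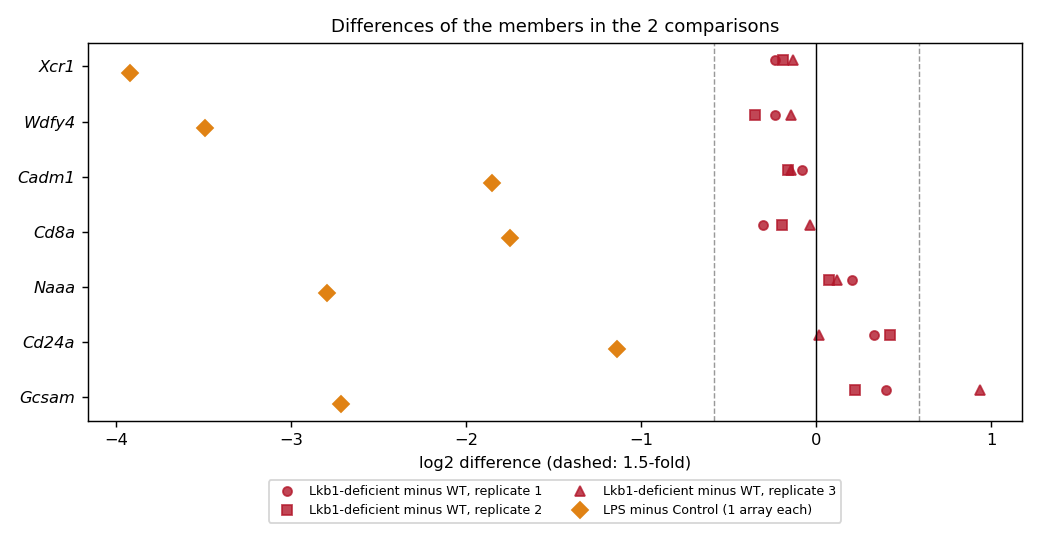
Log2 differences (horizontal axis) of the 7 genes; red marks are Lkb1-deficient minus WT DCs in each of the 3 same-numbered pairs and orange diamonds are LPS minus Control, 1 array each, with dashed lines at 1.5-fold. The red marks lie between −0.35 and 0.93, and the orange diamonds between −3.92 and −1.14.

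For LPS, 7 of 7 genes were lower by at least 1.5-fold, where 3.95% of probe sets were, and 7.52% of those whose mean signal was at or above the median, as that of all 7 genes was. By at least 2-fold, 7 of 7 genes and 1.69% of probe sets were lower. The median difference over the 7 genes was −2.71, or 6.56-fold, which is the value of *Gcsam*, and that of all probe sets was 0. LPS and Control had 1 array each, so these differences have no replicate check and no p value. The LPS and Control values were equal to the last digit for 54.2% of probe sets, *Stk11* among them (7.10 on both), and for 0 of the 7 genes. These ties fix the median over all probe sets at 0, and they also lower the shares of all probe sets given above. To set the LPS array beside replicated arrays, an alternative chosen after the data were seen centred each array on its median and compared LPS with the 3 WT arrays. The medians were taken over 41345 probe sets on the WT arrays and 33649 on the LPS and Control arrays, so a constant shift between them is possible. The LPS array was then below all 3 WT arrays for 7 of 7 genes, as for 27.7% of probe sets. The Control array lay within the range of the 3 WT arrays for 4 of 7 and below it for *Xcr1*, *Cadm1* and *Cd24a*. The centred fall was the largest for *Xcr1* (−4.51) and the smallest for *Cd8a* (−1.54). In the order of the falls against the Control array, *Xcr1* was followed by *Wdfy4*, *Naaa*, *Gcsam*, *Cadm1*, *Cd8a* and *Cd24a*, an order that changed under the alternatives. With 1 array a group, no spread was available to say which neighbours in that order differ.

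Whether LPS and Lkb1 deletion moved the genes differently was tested with limma on all 8 arrays, as the LPS minus Control difference minus the Lkb1-deficient minus WT difference. Without the block 0 of 7 genes passed an adjusted p under 0.05, where 0.00297% of probe sets did, and 4 of 7 had an unadjusted p under 0.05. With the block 6 of 7 passed, where 0.981% of probe sets did. *Xcr1* (−3.73, adjusted p = 0.00230), *Wdfy4* (−3.25, 0.00349) and *Naaa* (−2.93, 0.00386) had the smallest adjusted p values in that limma fit, and *Cd24a* (−1.39, adjusted p = 0.0609) missed the threshold. That fit pairs the LPS array with the Control array and lets them vary like the genotype pairs, which no label states, so these calls rest on the assumption. For the unadjusted count no share over all probe sets is given, so it cannot be set against the whole array.

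The genes that bind or resemble the 7 genes and *Clec9a* were examined beside them. Of 27 such partners and relatives with a probe set, 8 were at least 1.5-fold lower with LPS and 1 was higher. The median of the 27 genes was −0.19, and 8 of them had equal values on both arrays. Of all probe sets, 3.95% were lower and 3.63% higher. *Cadm3*, an adhesion molecule of the *Cadm1* family, was at 4.84 with LPS and 7.30 in Control, 5.49-fold lower. *Clec7a*, the β-glucan receptor Dectin-1 of the same lectin cluster as *Clec9a*, was at 7.40 with LPS and 9.43 in Control, 4.07-fold lower. In Lkb1-deficient DCs 0 of these 27 genes passed limma with or without the block.

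Among 24 other genes of the CD8+ cDC1 programme, LPS did not go with a uniform fall. On the LPS array 13 of 24 were at least 1.5-fold lower than on the Control array and 5 of 24 higher, with a median of −0.85, against −2.71 for the 7 marker genes. *Tlr3*, the sensor of double-stranded RNA in endosomes, was at 4.41 with LPS, near that array's median of 4.14, and at 7.44 in Control, 8.17-fold lower. *Rab7b*, a small GTPase of late endosomes, was 6.74-fold lower (5.82 with LPS and 8.57 in Control), and *Ppt1*, a lysosomal thioesterase, was 5.62-fold lower (8.41 with LPS and 10.90 in Control). Among the genes with the highest WT means, *Id2*, an inhibitor of DNA-binding proteins, was 0.86 higher with LPS, the interferon-inducible *Ifi205* 0.59 higher and *Apol7c* 1.20 lower on the log2 scale. The largest rise of the 24 was that of *Ly75*, which encodes the endocytic receptor DEC-205: 9.38 with LPS and 7.41 in Control, 3.91-fold higher. Of the 4 transcription factors named above, *Irf8* was 2.92-fold lower with LPS, *Batf3* differed by 0.33, and *Nfil3* was higher by 1.79, as *Id2* was by the value just given. *Irf8*, *Batf3* and *Nfil3* were named after their values had been seen.

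**Figure D3:**
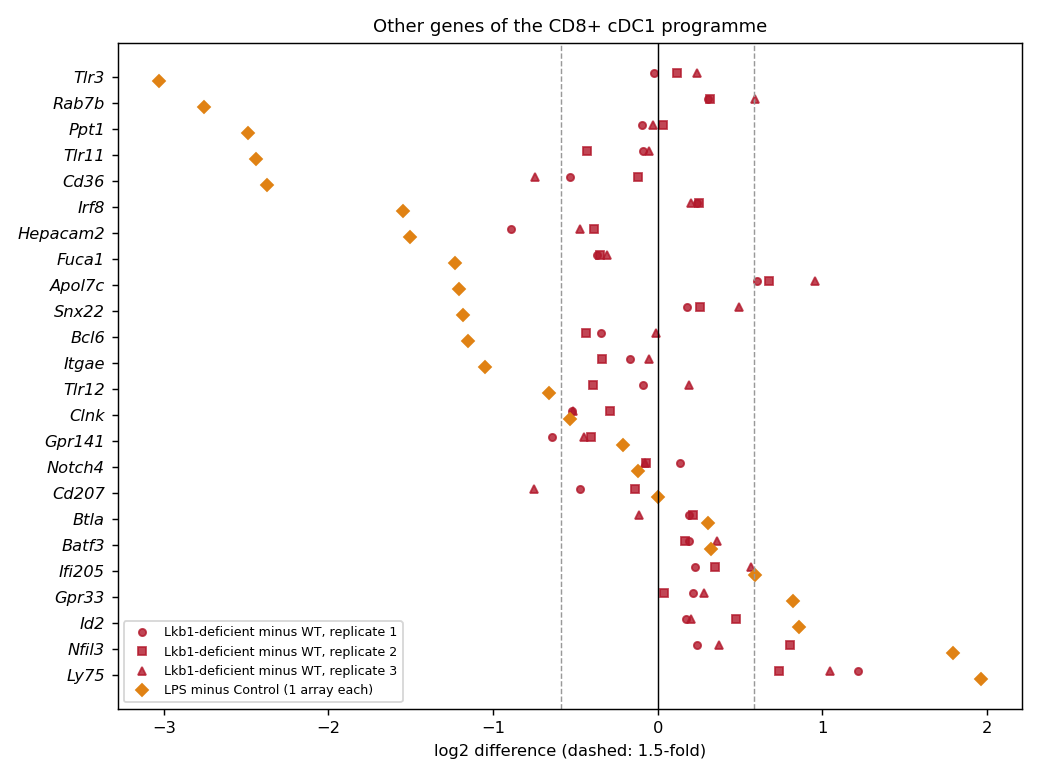
Log2 differences (horizontal axis) of 24 other genes of the CD8+ cDC1 programme, ordered by LPS minus Control; red marks are Lkb1-deficient minus WT DCs in the 3 same-numbered pairs, orange diamonds are LPS minus Control, 1 array each, and dashed lines mark 1.5-fold. The diamonds run from −3.03 (Tlr3) to 1.97 (Ly75), while all 3 red marks of Ly75 and of Apol7c lie right of the dashed line and most others lie inside the lines.

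Lkb1 deletion gave 0 of these 24 genes past an adjusted p under 0.05 in limma, with or without the block, and their median difference was 0.05. *Ly75* was at 8.03, 7.64 and 7.24 in Lkb1-deficient DCs and at 6.81, 6.90 and 6.19 in WT DCs. It was higher in each pair and the groups did not overlap, but with the block the adjusted p was 0.0979 and without it 1. *Apol7c*, of the apolipoprotein L family, was at 10.99, 11.19 and 10.19 in Lkb1-deficient DCs and at 10.39, 10.52 and 9.23 in WT DCs. Its mean difference was 0.75 with overlapping groups (adjusted p = 0.134 with the block). *Hepacam2*, an adhesion molecule of the immunoglobulin family, differed by −0.58 (adjusted p = 0.244 with the block).

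The machinery of antigen presentation on MHC class I is what cDC1 use for cross-presentation. Of its 15 genes 0 were at least 1.5-fold lower with LPS and 4 were higher, with a median of 0.09. *Tap2*, a subunit of the peptide transporter, was at 7.55 with LPS and 6.37 in Control, 2.26-fold higher. *Tapbpl*, a peptide editor of MHC class I, was 2.25-fold higher, and *Tap1*, the other transporter subunit, was 1.96-fold higher. In Lkb1-deficient DCs 0 of 15 passed limma with or without the block.

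**Figure D4:**
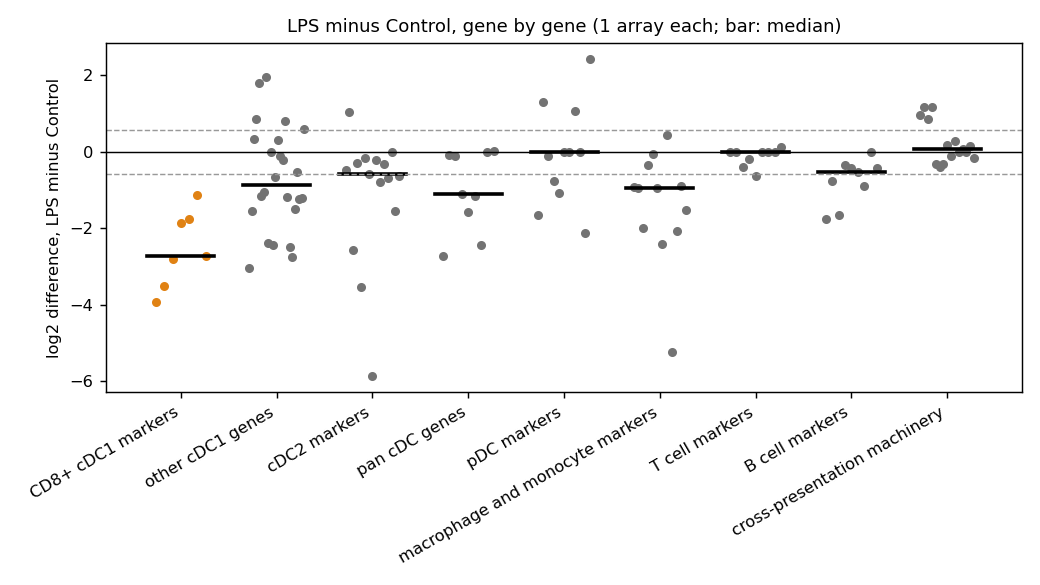
LPS minus Control (vertical axis, log2, 1 array each) for each gene of the CD8+ cDC1 markers (orange) and of 8 other gene lists (grey); black bars are medians and dashed lines mark 1.5-fold. The bar of the CD8+ cDC1 markers is at −2.71, and those of the other lists shown run from −1.10 to 0.09.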

How the data were processed

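RNA of splenic DCs was hybridised to 8 Affymetrix Mouse Gene 2.0 ST arrays. The authors deposited log2 signals, 1 per probe set and array, from 0.15 to 13.39; 33649 of 41345 probe sets also had values on the Control and LPS arrays. The methods name sorting of DCs, GeneSpring and an unpaired test, and the submitters' processing notes name MAS5 without a version or role. Summarisation, normalization between arrays, the gate used for these DCs and the LPS dose of these arrays are not stated in the sources read. The labels call the LPS mouse wild type, and a figure legend of the paper names Lkb1f/f mice. Values were used as deposited, with no filter on dim probe sets.

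The 3 Lkb1-deficient and 3 WT arrays were compared with limma 3.58.1 in R 4.3.3 (linear model, empirical Bayes), adjusted by Benjamini-Hochberg over the 41345 probe sets, without pairing. Its empirical Bayes step gave all probe sets 1 common standard error. After the group means were removed, arrays of the same replicate number correlated at 0.85, 0.80 and 0.74 and others at −0.61 to −0.13, although no label states pairing, so limma with the number as a block is given where it changes a call. LPS minus Control is a difference of single arrays. The genotype fits, with and without the block, were also run on simulated arrays with the same normal noise for all probe sets. Those arrays held no LPS or Control array, so that run does not bear on the LPS values or on the difference of the effects. Alternatives were quantile normalization, centring, 16 added to linear values, a filter at the median signal, the methods' t-test, all 8 arrays, a trended variance, the mean of a gene's probe sets and leaving out arrays or pairs.

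Beside the members, 13 lists (other cDC1, cDC2, conventional DC, plasmacytoid DC, T, B, germinal centre B, NK, macrophage and monocyte, neutrophil, erythroid, cross-presentation, and partners and relatives) were described. From each list up to 3 genes with the largest differences in each comparison above the median signal were eligible to be named, and from the other cDC1 genes also the 4 with the highest WT mean; likeness took the 5 highest correlations. The members and lists were chosen with earlier results of these data known. Promoter sequences are from RefSeq.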

Additional observations from a re-analysis of the deposited data

How the results depend on the processing

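Over all alternatives for Lkb1 deletion, 126 values of the 7 genes were computed, 0 passed an adjusted p under 0.05 (lowest 0.353) and 12 changed sign, all when 1 array was left out without pairing. The ranges over the 6 arrays left out were −0.79 to 0.39 for *Xcr1*, −0.77 to 0.24 for *Wdfy4*, −0.60 to 0.34 for *Cadm1*, −0.62 to 0.19 for *Cd8a*, −0.34 to 0.61 for *Naaa* and −0.076 to 0.55 for *Cd24a*; *Gcsam* stayed above 0 at 0.02 to 0.85. The median over the 7 genes ran from −0.60 to 0.39 and that of all probe sets from −0.35 to 0.31, since leaving out 1 array of a pair shifts the whole array level. The lowest median came without WT replicate 3 and the highest without Lkb1-deficient replicate 3. The count of probe sets past the threshold, 4 as reported, was 0 with 16 added to the linear values, 0 with arrays centred on their medians, 0 by the methods' t-test, 2 after quantile normalization, 0 to 10 when 1 array was left out, and 95 with the replicate block, which fell to 0 when replicate 1, 2 or 3 was left out whole; the cause was not tested. The replicate block left all 7 genes uncalled and added 1 call among the genes of the 13 lists, *Cox6a2*. For the difference between the LPS and Lkb1 effects it gave 6 calls of 7 genes, against 0 without it.

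For LPS, all 35 alternative values of the 7 genes were at least 1.5-fold lower (−4.51 to −1.03). Their median of −2.71 was −2.65 after quantile normalization, −2.15 with 16 added to the linear values and −2.94 against the 3 WT arrays. Probe sets past 1.5-fold numbered 2552, and 1117 past 2-fold. A single array a group, an unknown normalization between arrays and equal values for 54.2% of probe sets on the LPS and Control arrays limit these differences; *Clec9a* was not measured apart from *Clec1b*.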

Other observations

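Other gene groups of the spleen's DCs were lower on the LPS array too, again as differences between 1 array each. Of 9 genes shared by conventional DCs, 5 were at least 1.5-fold lower and 0 higher, with a median of −1.10: *Itgax*, which encodes CD11c, was 6.62-fold lower, *Ciita*, the master regulator of MHC class II, 5.43-fold lower, and *H2-Ab1*, a chain of MHC class II, 2.98-fold lower. Of 15 cDC2 markers, 8 were lower and 1 higher (median −0.59), and *Cd209a*, a C-type lectin, was at 3.72 with LPS and 9.59 in Control, a difference of −5.87 with the LPS value below that array's median of 4.14. Of 12 macrophage and monocyte markers, 9 were lower and 0 higher (median −0.95), and *Slc40a1*, the iron exporter ferroportin, was 37.8-fold lower. Summed linear signals of these lists on the LPS and Control arrays were 8788 and 19730 for the genes of conventional DCs, 2738 and 5080 for cDC2, 7073 and 12715 for macrophages and monocytes, and 743 and 4133 for the CD8+ cDC1 markers. Their part in the fall of the CD8+ cDC1 markers was not tested.

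Lists of other cells were mixed. Of 11 plasmacytoid DC markers 4 were lower with LPS and 3 higher (median 0), and *Irf7*, which encodes an interferon regulatory factor, was 2.44 higher on the log2 scale. Of 9 B cell markers 4 were lower and 0 higher (median −0.52). Of 8 NK cell markers 1 was lower and 2 higher (median 0), of 9 neutrophil markers 0 were lower and 5 higher (median 0.61), and of 6 erythroid markers 0 were lower or higher (median 0). Equal values on both arrays were held by 3 plasmacytoid DC, 1 B cell, 2 NK cell, 3 neutrophil and 4 erythroid markers. Such ties draw these medians toward 0 and lower the counts. Across the 157 genes of all 13 lists, limma called 0 between Lkb1-deficient and WT DCs, with 2 past an unadjusted threshold of 0.05. Using the replicate block it called 1, with 37 past that unadjusted threshold. The called gene was *Cox6a2*, a muscle-type cytochrome oxidase subunit that marks plasmacytoid DCs, higher by 1.69 with an adjusted p of 0.0334 in limma. The unadjusted counts have no share over all probe sets beside them.

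The 5 genes whose profile over the 8 arrays was most like the mean profile of the 7 marker genes were *Alox5ap* (Pearson's r = 0.997), *Ccnd1* (0.995), *Gpr141b* (0.993), *Abca9* (0.990) and *Lta4h* (0.989), each array being centred on its median. *Alox5ap* and *Lta4h* encode proteins of leukotriene synthesis, and *Ccnd1* encodes cyclin D1. Without the LPS array the same correlations over 7 arrays were 0.955, 0.976, 0.857, 0.872 and 0.930. *Gpr141b* was 25.9-fold lower with LPS and *Alox5ap* 4.13-fold lower. Among the 7 marker genes, the 21 pairwise correlations were 0.66 to 0.99 over 8 arrays and −0.65 to 0.94 over the 7 arrays without LPS. These correlations are descriptions over few arrays, and arrays of the same replicate number share a level.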
